A study of Mus musculus with 7 samples.

Results

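The 49 genes described here are the members of the Notch signalling pathway and the basic helix-loop-helix (bHLH) transcription factors, with their Id inhibitors, in sorted cells of the embryonic mouse bowel. They were chosen by name, with earlier results of these data known, so the list is described and not tested. Each gene stands for the probe set that the array's annotation pairs with that gene symbol alone, and for the probe set with the highest mean over the 7 arrays where a gene had several. All 49 were measured, out of 19938 genes tested. The bowel was taken at embryonic day 17.5 from Wnt1-Cre;R26R-EYFP mice, in which Cre recombinase under the Wnt1 promoter switches on a yellow fluorescent protein in neural crest cells and all their descendants. Fluorescence-activated cell sorting (FACS) of the dissociated bowel gave 4 samples of YFP-positive cells, the enteric neural crest-derived cells that form the neurons and glia of the bowel's nervous system, and 3 samples of YFP-negative cells. Both groups carry the same alleles and neither was treated. The YFP-negative group is a mix of every other cell of the bowel and of any crest cell in which the reporter was not switched on. The comparison asks which of these genes are enriched in the crest-derived cells late in the development of the enteric nervous system. The labels do not say whether samples came from separate animals or litters, so each p-value reflects the spread among these samples alone, which may be technical. In such bulk samples, fewer cells of a type and less RNA per cell cannot be told apart.

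Notch receptors sit on the cell surface and are activated by Delta-like and Jagged ligands on a neighbouring cell. Cleavage then frees the intracellular part of the receptor, which enters the nucleus and, with the DNA-binding protein RBPJ and a Mastermind-like co-activator, switches on genes of the Hes and Hey families. These encode bHLH repressors that hold back proneural bHLH activators, so that a progenitor stays undifferentiated or becomes glia. Class II bHLH activators bind E boxes in DNA as partners of the E proteins, and Id proteins, which lack the DNA-binding region, block them by taking up E proteins. In the bowel, Notch signalling is known to maintain enteric crest progenitors, and Hand2 is known to be needed for enteric neurons to differentiate.

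Of the 49 genes, 11 were higher and 5 were lower in the YFP-positive cells at an adjusted p under 0.05 (limma, Benjamini-Hochberg adjustment over all 19938 genes), and 33 did not pass. Over all genes, 8.39% were called higher, 9.11% lower and 17.5% in either direction. At least 2-fold differences were called for 7 genes that were higher (Hey2, Hand2, Mfng, Heyl, Dner, Tcf4 and Dll3) and for 2 that were lower (Dlk1 and Hand1), beside 3.12% and 4.53% of all genes. The log2 fold changes (mean log2 level in YFP-positive minus that in YFP-negative cells) ran from -1.84 to 3.30, with a median of 0.03, while the median over all genes was 0.01. The median size of the difference, without its sign, was 0.21 among these genes and 0.14 over all genes. The group ranges did not overlap for 21 of the 49 genes, beside 26.9% of all genes; these were the 16 called genes and Rbpj, Maml2, Numb, Hes1 and Id4. Within the Notch pathway, 8 of 28 genes rose and 3 fell, and among the other bHLH and Id genes 3 of 21 rose and 2 fell. The number that fell rests on few arrays: it was 3 when YFP-negative array 1 or array 2 was left out, because Notch3 and Dlk1 then lost their call.

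**Figure D1:**
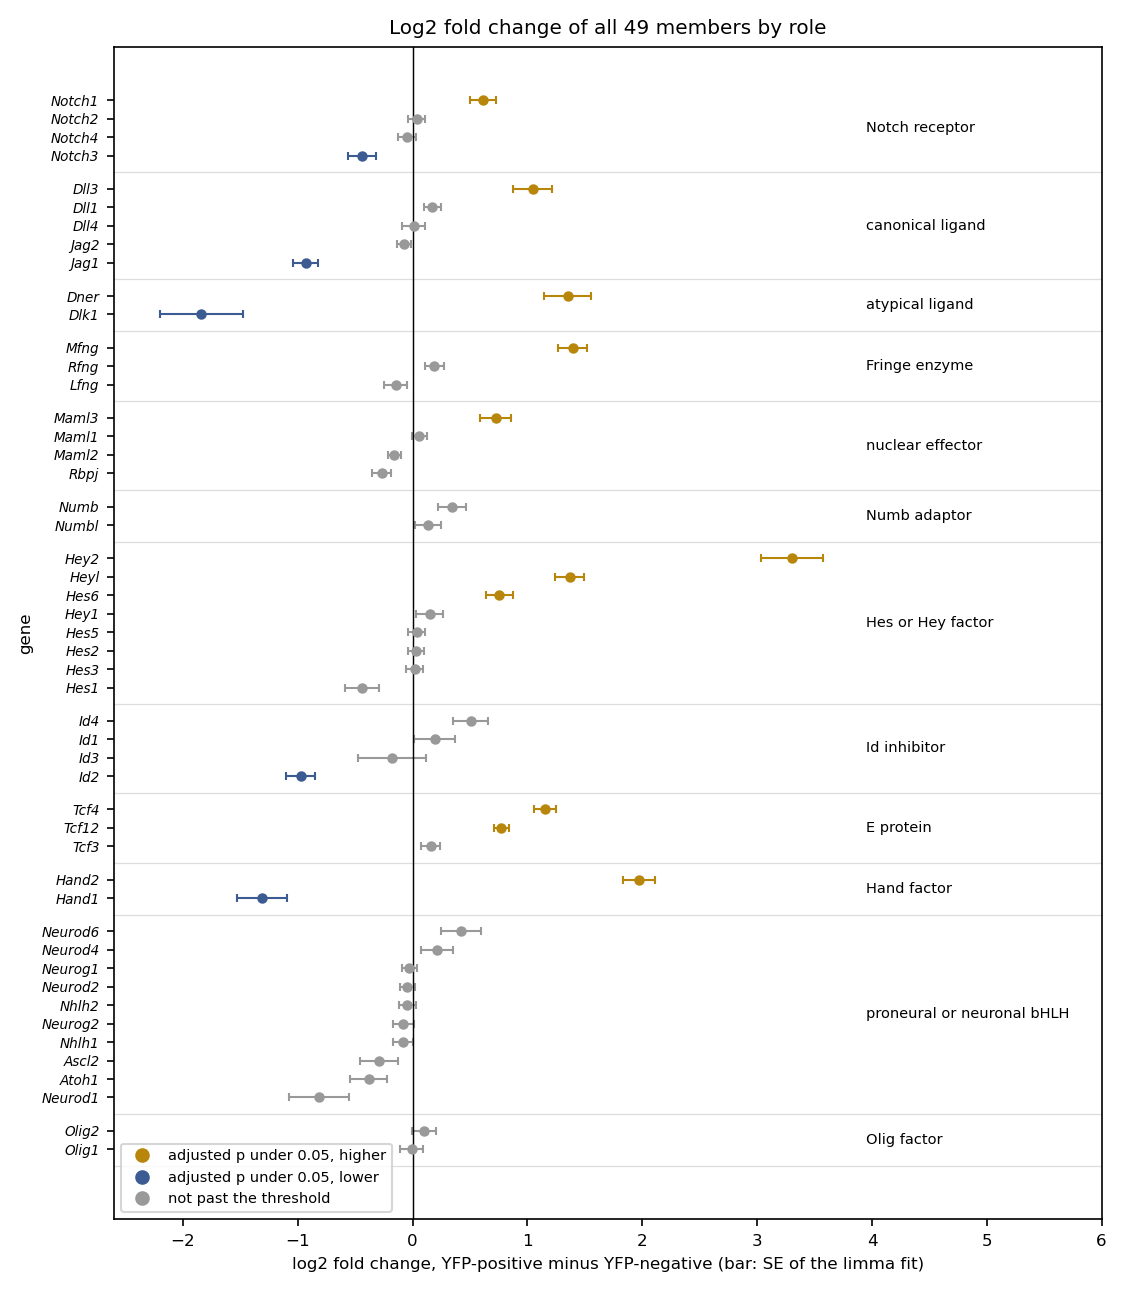
Log2 fold change of each of the 49 genes on the horizontal axis (YFP-positive minus YFP-negative; bars are the SE of the limma fit), with genes grouped by role. Points in gold (11 genes) passed the threshold as higher, points in blue (5 genes) as lower, and the 33 grey points did not pass; Hey2 lies farthest to the right at 3.30 and Dlk1 farthest to the left at -1.84.

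The sort was checked against marker genes. All 9 measured enteric neuron markers and all 8 measured markers of enteric glia and progenitors were higher in YFP-positive cells, and the mean level of the neuron list was 8.74 to 9.34 on YFP-positive and 5.08 to 5.46 on YFP-negative arrays. All 6 fibroblast and mesenchyme, all 5 pericyte and all 6 myeloid markers were lower. Fewer passed as lower in the other lists: 2 of 6 for smooth muscle, 2 of 9 for endothelium, 2 of 3 for interstitial cells of Cajal, 1 of 6 for enteroendocrine, 2 of 4 for lymphoid, 1 of 2 for erythroid and 1 of 3 for mesothelial cells. Kdr of the endothelium list and Etv1 of the interstitial cell list were higher. No marker of the intestinal epithelium (0 of 9) or of goblet cells (0 of 4) passed in either direction by limma, with 1 of each list at an unadjusted p under 0.05. The 4 YFP-positive arrays were not alike: the mean level of the smooth muscle list was 8.20, 9.04, 9.66 and 10.11 on arrays 1 to 4, that of the fibroblast and mesenchyme list 7.58, 7.95, 8.48 and 8.74, and that of the intestinal epithelium list 7.27, 7.62, 8.19 and 8.40. On the YFP-negative arrays these lists had means of 10.33 to 10.87, 9.63 to 10.31 and 7.99 to 8.03. YFP-positive arrays 3 and 4 thus had higher levels of these non-neural lists than arrays 1 and 2, and results that change without them are given as such. The fit without them was not planned and was added with these levels known. Array medians lay between 5.87 and 5.92. The files hold no detection calls, so a low level cannot be told from background, and the number of arrays limits the precision.

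The receptors did not move together. Notch1, the receptor with the broadest role in progenitors, was at log2 levels of 7.78, 7.52, 7.44 and 7.76 on YFP-positive arrays 1 to 4 and at 6.86, 7.06 and 7.12 on YFP-negative arrays 1 to 3. Every YFP-positive array lay above every YFP-negative array, and Notch1 rose by 0.61 ± 0.11 (log2 fold change ± SE, adjusted p = 0.00950), a 1.53-fold difference. Notch1 kept its call when each array was left out in turn. It lost the call in the limma fit with the replicate number as a block (adjusted p = 0.094). Notch3, known for its role in vascular smooth muscle and pericytes, was at 5.52, 5.57, 5.87 and 5.92 on the YFP-positive and at 6.25, 6.19 and 6.04 on the YFP-negative arrays. It fell by 0.44 ± 0.12 (adjusted p = 0.0489), with the 2 closest values, 5.92 and 6.04, on YFP-positive array 4 and YFP-negative array 3. This call is at the threshold: it was lost when any of the arrays except YFP-positive array 4 was left out (adjusted p from 0.0390 to 0.149 over these fits). The pericyte markers moved with Notch3, with a mean level of 5.97, 6.14, 6.81 and 6.79 on the YFP-positive and of 7.69 to 8.22 on the YFP-negative arrays. The smooth muscle and the fibroblast and mesenchyme lists, given above, had the same pattern, so it was not particular to pericytes. The part of these cells in the result was not tested. Notch2 differed by 0.04 ± 0.07 (adjusted p = 0.794), with a 95% confidence interval from -0.14 to 0.21. Notch4, best known in endothelium, differed by -0.05 ± 0.08 (adjusted p = 0.747).

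Among the 5 canonical ligands 1 rose and 1 fell. Dll3, a divergent Delta-like protein that acts inside the cell and does not activate receptors on neighbours, was at 6.49, 6.25, 6.57 and 5.97 on the YFP-positive and at 5.30, 5.05 and 5.48 on the YFP-negative arrays. The groups were apart on every array, and Dll3 rose by 1.05 ± 0.17 (adjusted p = 0.00580), a 2.06-fold difference. Jag1, a ligand that activates receptors on neighbouring cells, was at 5.37, 5.48, 5.09 and 5.52 on the YFP-positive and at 6.29, 6.37 and 6.23 on the YFP-negative arrays. Jag1 was therefore lower on all YFP-positive arrays, and fell by 0.93 ± 0.11 (adjusted p = 0.00143). Unlike Notch3, it kept its call when each array was left out in turn. The other activating ligands did not pass: Dll1 differed by 0.17 ± 0.07 (adjusted p = 0.172), Dll4 by 0.01 ± 0.10 (adjusted p = 0.964) and Jag2 by -0.08 ± 0.06 (adjusted p = 0.490).

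Both atypical ligands passed, in opposite directions. Dner, a neuronal transmembrane protein with Delta-like repeats, was at 6.49, 6.95, 6.09 and 6.29 on the YFP-positive and at 4.92, 5.13 and 5.27 on the YFP-negative arrays. It rose by 1.35 ± 0.20 (adjusted p = 0.00438), a 2.55-fold difference, and no YFP-positive array came near the YFP-negative range. Dlk1, a protein of immature mesenchyme and preadipocytes that can inhibit Notch, was at 7.47, 8.13, 8.82 and 8.63 on the YFP-positive and at 10.46, 10.30 and 9.56 on the YFP-negative arrays. It fell by 1.84 ± 0.36 (adjusted p = 0.0134), a 3.58-fold difference, and varied widely within both groups (SD 0.60, n = 4, and 0.48, n = 3). Dlk1 was higher on YFP-positive arrays 3 and 4 than on arrays 1 and 2 and lower on YFP-negative array 3 than on arrays 1 and 2. The fibroblast and mesenchyme list, given above for the YFP-positive arrays, was also lower on YFP-negative array 3 (9.63) than on arrays 1 and 2 (10.31 and 10.29). Other non-neural lists were lower there too, the pericyte and smooth muscle lists among them. The part of these cells in the result was not tested. Without YFP-negative array 1 or array 2 the adjusted p was 0.0581 or 0.0629. Without YFP-positive arrays 3 and 4 Dlk1 fell by 2.30 (adjusted p = 0.0222).

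Of the 3 Fringe enzymes, which add sugars to Notch receptors and so change which ligands they respond to, Mfng rose. It was at 7.67, 7.56, 7.49 and 7.34 on the YFP-positive and at 5.87, 6.23 and 6.28 on the YFP-negative arrays, means of 7.52 ± 0.14 (SD, n = 4) and 6.12 ± 0.22 (SD, n = 3). The difference was 1.39 ± 0.12 (adjusted p = 0.000412), or 2.62-fold, and each group varied far less than the distance between them. Lfng and Rfng did not pass (-0.15 ± 0.10 and 0.19 ± 0.08, adjusted p = 0.369 and 0.182). Of the nuclear effectors, the co-activator Maml3 rose by 0.72 ± 0.13 (adjusted p = 0.0105). Its levels were 7.22, 7.17, 7.31 and 7.56 on the YFP-positive and 6.39, 6.55 and 6.83 on the YFP-negative arrays, and its call was lost without YFP-negative array 2 (adjusted p = 0.0505), as it was when YFP-positive arrays 3 and 4 were left out (adjusted p = 0.0722). Rbpj, the DNA-binding partner of the cleaved receptor, differed by -0.27 ± 0.08 and did not pass (adjusted p = 0.0717), though its ranges of 7.74 to 7.95 and 7.96 to 8.21 did not overlap. Rbpj passed in 2 of 17 alternative fits, with array weights and without YFP-negative array 3. That array had the lowest Rbpj level of its group, so leaving it out widens the difference. Maml1 and Maml2 differed by 0.06 ± 0.07 and -0.16 ± 0.06 (adjusted p = 0.618 and 0.118). The Numb adaptors, which hold receptors back by endocytosis, did not pass either, with 0.34 ± 0.13 for Numb (adjusted p = 0.114) and 0.13 ± 0.12 for Numbl (adjusted p = 0.505).

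The largest difference among the 49 genes was in a Notch target gene, Hey2, and the family it belongs to was split. In RefSeq's promoter table (build GRCm38.p6; 250 bases before to 50 after the start of transcription), 39 of the 49 genes had an entry. The letters GTGGGAA, a core of the RBPJ binding motif, were searched on both strands. They were found for 4 of these 39 genes (10.3%), namely Hey2, Hes5, Lfng and Nhlh2, and for 7.25% of the 27025 genes in the table (6.38% of its 32851 promoters). Hey2 was the only one of the 12 called genes with an entry that held them. The promoters of Hey2 and Hes5, which each hold the motif at 2 positions, and of Lfng, which holds it at 1, are shown. These genes share the letters, but of them only Hey2 passed the threshold. Nhlh2, which did not pass either, is not shown. Each is written on the gene's own strand, and capitals mark GTGGGAA or its reverse complement TTCCCAC. The Hey2 promoter lies at chr10:30842734-30843033 (minus strand), that of Hes5 at chr4:154960673-154960972 (plus strand) and that of Lfng at chr5:140607091-140607390 (plus strand).
Hey2: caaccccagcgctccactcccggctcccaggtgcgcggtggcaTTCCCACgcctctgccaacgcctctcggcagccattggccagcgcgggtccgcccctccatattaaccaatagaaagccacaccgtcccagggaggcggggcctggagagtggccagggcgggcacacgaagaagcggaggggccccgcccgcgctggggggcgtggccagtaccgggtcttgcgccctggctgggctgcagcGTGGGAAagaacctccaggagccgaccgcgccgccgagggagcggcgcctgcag
Hes5: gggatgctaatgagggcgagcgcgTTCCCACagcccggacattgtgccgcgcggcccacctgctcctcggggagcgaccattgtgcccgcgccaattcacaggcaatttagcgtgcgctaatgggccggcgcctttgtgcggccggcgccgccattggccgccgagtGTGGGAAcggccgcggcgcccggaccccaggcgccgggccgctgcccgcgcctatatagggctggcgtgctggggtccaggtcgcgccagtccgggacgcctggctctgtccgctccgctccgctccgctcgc
Lfng: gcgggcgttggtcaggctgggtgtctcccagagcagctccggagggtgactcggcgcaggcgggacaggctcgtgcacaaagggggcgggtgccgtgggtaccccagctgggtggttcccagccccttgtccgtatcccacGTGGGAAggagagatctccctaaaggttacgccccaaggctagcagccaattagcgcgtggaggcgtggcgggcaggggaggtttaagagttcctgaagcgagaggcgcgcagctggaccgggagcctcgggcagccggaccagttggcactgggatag
In Hey2 the matches begin 207 bases (reverse strand) and 4 bases before the start, in Hes5 226 (reverse strand) and 83 bases, and in Lfng 109 bases, where the match overlaps an E box that begins 112 bases before the start. A match of letters is a description of the sequence and does not show that RBPJ binds there.

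Hey2, a bHLH repressor, was at log2 levels of 8.28, 8.10, 7.74 and 7.49 on YFP-positive arrays 1 to 4 and at 5.05, 4.09 and 4.67 on YFP-negative arrays 1 to 3. The group means were 7.90 ± 0.36 (SD, n = 4) and 4.60 ± 0.48 (SD, n = 3). It rose by 3.30 ± 0.27 (adjusted p = 0.000288; 95% confidence interval from 2.66 to 3.94), a 9.85-fold difference. Within the YFP-positive group Hey2 was lower on arrays 3 and 4, and without these the difference was 3.59 (adjusted p = 0.00461). Hes5, whose promoter shares the motif, is a classic Notch target in neural progenitors. It was at 6.36, 6.26, 6.53 and 6.34 on the YFP-positive arrays and at 6.34 on all 3 YFP-negative arrays, a difference of 0.03 ± 0.07 (adjusted p = 0.802). Its deposited value was the same on 4 of the 7 arrays, so the array resolved little of its level.

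Heyl, another Hey repressor, was at 8.07, 8.07, 8.37 and 8.05 on the YFP-positive and at 6.81, 6.54 and 6.97 on the YFP-negative arrays. It rose by 1.37 ± 0.13 (adjusted p = 0.000496), a 2.58-fold difference, with array 3 the highest and the other YFP-positive arrays close together. Hes6, which opposes Hes1 and favours neuronal differentiation, was at 6.79, 6.97, 6.85 and 6.68 on the YFP-positive and at 6.25, 5.84 and 6.11 on the YFP-negative arrays. The groups did not overlap, and Hes6 rose by 0.76 ± 0.11 (adjusted p = 0.00438). Hes1, a Notch target found in many tissues and the intestinal crypt among them, was at 6.99, 7.23, 6.84 and 7.17 on the YFP-positive and at 7.79, 7.28 and 7.40 on the YFP-negative arrays. It differed by -0.44 ± 0.15 and did not pass (adjusted p = 0.0931). Hey1, at 7.13, 7.03, 6.70 and 6.71 on the YFP-positive and 6.77, 6.71 and 6.75 on the YFP-negative arrays, differed by 0.15 ± 0.12 (adjusted p = 0.468). YFP-positive arrays 1 and 2 were above all YFP-negative arrays and arrays 3 and 4 were not, and without arrays 3 and 4 Hey1 passed at 0.33 (adjusted p = 0.0381). That fit leaves out the YFP-positive arrays with the lowest Hey1 levels, so the pass is no independent support for a difference. Hes2 and Hes3 differed by 0.03 ± 0.07 and 0.02 ± 0.08 (adjusted p = 0.811 and 0.912).

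**Figure D2:**
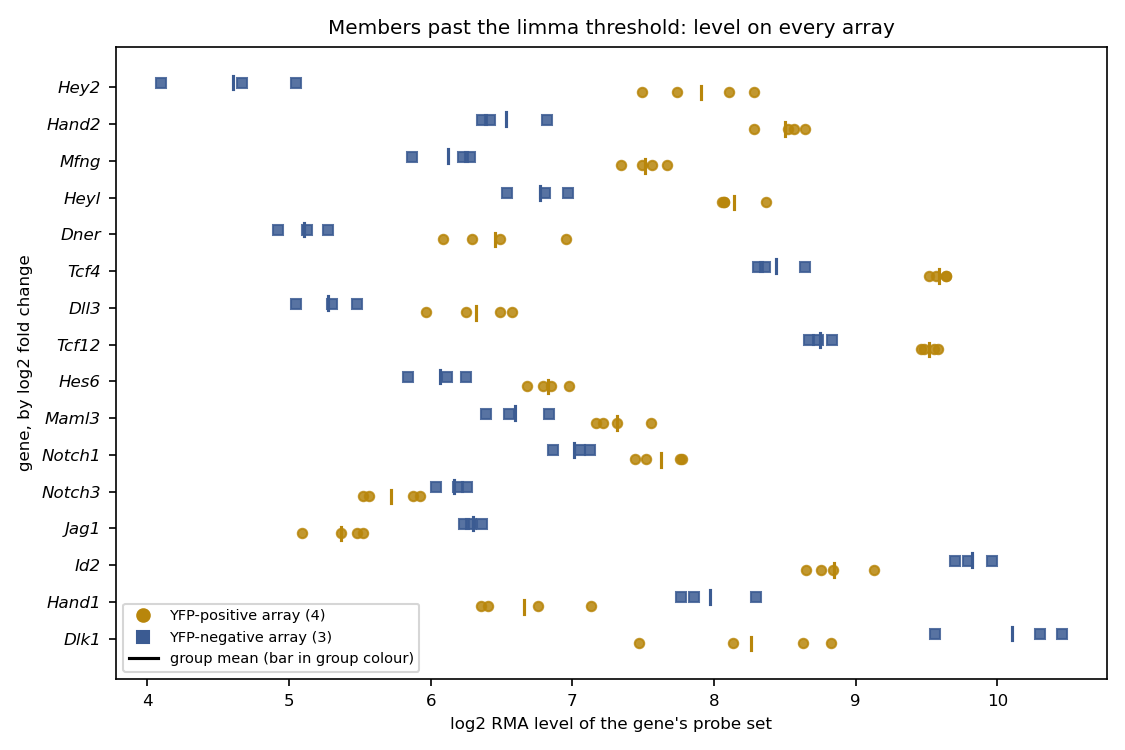
Log2 RMA level of the 16 called genes on every array (horizontal axis), ordered by log2 fold change from Hey2 at 3.30 to Dlk1 at -1.84. Gold circles are the 4 YFP-positive arrays, blue squares the 3 YFP-negative arrays and short bars the group means; in each of the 16 genes the ranges of the groups lie apart, by the least for Notch3 (5.92 against 6.04).

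The E proteins are the general partners of tissue-specific bHLH activators, and 2 of the 3 rose. Tcf4 was at 9.64, 9.51, 9.57 and 9.64 on the YFP-positive and at 8.31, 8.36 and 8.64 on the YFP-negative arrays, a difference of 1.15 ± 0.09 (adjusted p = 0.000260), or 2.22-fold. Tcf12 was at 9.55, 9.58, 9.46 and 9.48 against 8.83, 8.73 and 8.67, a difference of 0.77 ± 0.06 (adjusted p = 0.000316), or 1.71-fold. The YFP-positive arrays lay close together for both genes, with a spread (SD 0.06 for each, n = 4) much smaller than the distance between the groups. Tcf3, the third of the family, differed by 0.16 ± 0.08 (adjusted p = 0.258).

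The Id genes, whose products take up E proteins, moved the other way or did not pass. Id2 was at 8.84, 9.13, 8.65 and 8.76 on the YFP-positive and at 9.96, 9.70 and 9.80 on the YFP-negative arrays, and fell by 0.98 ± 0.13 (adjusted p = 0.00205), a 1.97-fold difference with no overlap between the groups. Id4, known in neural progenitors, was at 6.77, 6.94, 6.60 and 6.60 against 6.56, 6.09 and 6.02. Its difference of 0.51 ± 0.15 did not pass (adjusted p = 0.0656). Id4 passed in 3 of 17 alternative fits. These were the fit without YFP-negative array 1, the array nearest to the YFP-positive range, that after a further quantile normalization and that without the third of genes with the lowest means. Id1 and Id3 differed by 0.19 ± 0.18 and -0.18 ± 0.30 (adjusted p = 0.528 and 0.746). The deposited value of Id1 was the same on 4 of the 7 arrays. Id3 ranged from 8.07 to 9.18 within the YFP-negative group alone, so its interval of the difference, -0.88 to 0.52, is wide.

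The related factors Hand1 and Hand2 passed in opposite directions. Hand2, which enteric neurons need to differentiate, was at 8.52, 8.64, 8.57 and 8.28 on the YFP-positive and at 6.82, 6.36 and 6.42 on the YFP-negative arrays. It rose by 1.97 ± 0.14 (adjusted p = 0.000152), a 3.92-fold difference, from a mean of 6.53 ± 0.25 (SD, n = 3) to 8.50 ± 0.16 (SD, n = 4). Hand1, known in the heart and in the mesenchyme of the gut wall, was at 6.40, 6.36, 6.75 and 7.13 on the YFP-positive and at 8.29, 7.86 and 7.77 on the YFP-negative arrays. It fell by 1.31 ± 0.22 (adjusted p = 0.00650), a 2.48-fold difference. YFP-positive arrays 3 and 4 had the higher Hand1 levels of their group, as they had for the smooth muscle and the fibroblast and mesenchyme lists; the part of these cells in the result was not tested. Without arrays 3 and 4 Hand1 fell by 1.59 (adjusted p = 0.00969) and Hand2 rose by 2.05 (adjusted p = 0.00413). E boxes, the letters CANNTG to which Hand and other bHLH proteins bind (the motif reads the same on both strands), were found in the promoters of 25 of the 39 genes with an entry (64.1%), beside 75.0% of the 27025 genes in the table. They were found for 6 of the 8 genes that rose and 2 of the 4 that fell among those with an entry.

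Of all 19938 genes, 17.5% were called in either direction and 6016 were at an unadjusted p under 0.05. None of the 10 proneural and neuronal bHLH genes passed (0 by limma, 2 at an unadjusted p under 0.05). These are Neurod1, Neurod2, Neurod4, Neurod6, Neurog1, Neurog2, Nhlh1, Nhlh2, Ascl2 and Atoh1, activators that start or carry out neuronal and other differentiation programmes. Their differences ran from -0.82 to 0.42, and 8 of the 10 were in the third of all genes with the lowest mean level, where the arrays may not tell a transcript from background. The genes at both ends of that range were Neurod1 and Neurod6. Neurod1, which also drives enteroendocrine cells, was at 3.60, 4.04, 3.94 and 4.46 on the YFP-positive and at 5.03, 5.14 and 4.30 on the YFP-negative arrays, a difference of -0.82 ± 0.26 (adjusted p = 0.0783). YFP-negative array 3 fell inside the YFP-positive range, and Neurod1 passed without that array. The enteroendocrine marker list was likewise lower on YFP-negative array 3 (7.82) than on arrays 1 and 2 (9.15 and 9.23). So were the pericyte, smooth muscle, fibroblast and mesenchyme, goblet cell and mesothelium lists, but not the other lists. The part of any of these cells in the result was not tested. Neurod6 was at 3.47, 3.33, 2.86 and 2.86 against 2.86, 2.70 and 2.56, a difference of 0.42 ± 0.18 (adjusted p = 0.162). Atoh1, which specifies secretory cells of the gut epithelium, differed by -0.38 ± 0.16 (adjusted p = 0.169). Olig1 and Olig2, factors of the oligodendrocyte lineage, did not pass (0 by limma, 0 at an unadjusted p under 0.05), with differences of -0.01 ± 0.10 and 0.10 ± 0.11. Without YFP-positive arrays 3 and 4, Neurod6 passed as higher (0.69, adjusted p = 0.0251) and Ascl2 as lower (-0.54, adjusted p = 0.0284). That fit leaves out the YFP-positive arrays with the lowest Neurod6 and the highest Ascl2 levels. Neither pass is therefore independent support for a difference.

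**Figure D3:**
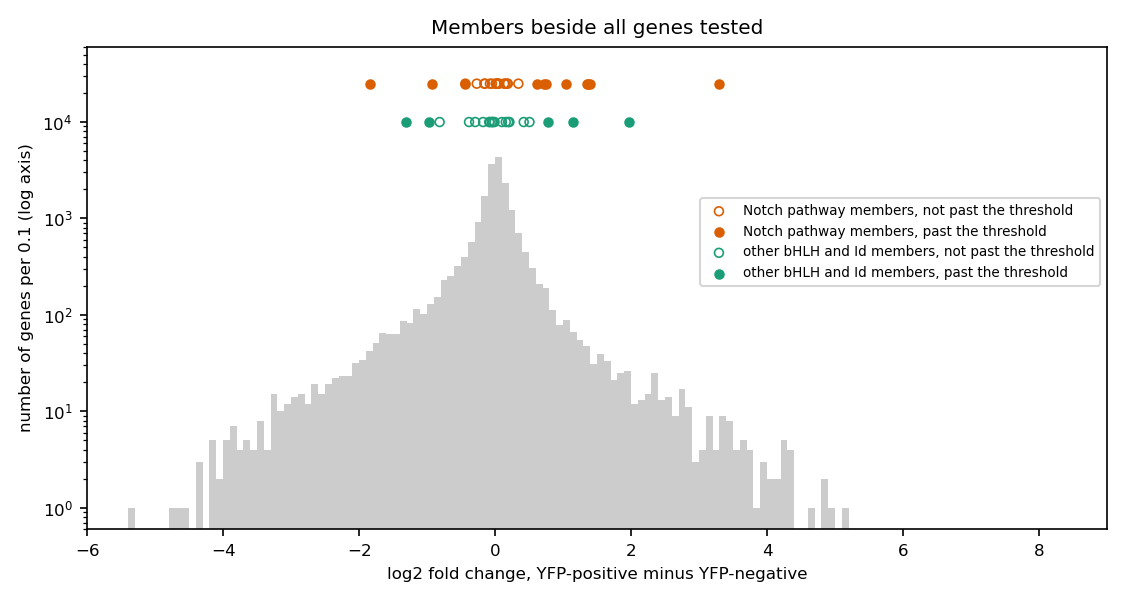
Histogram of the log2 fold change of all 19938 genes in steps of 0.1 (grey; the number of genes on a log axis), with the 28 Notch pathway genes in orange and the 21 other bHLH and Id genes in green plotted in rows above it. Filled points are the 16 called genes and open points the 33 that did not pass; most open points lie close to 0, and Hey2 at 3.30 lies apart from the others.

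Leaving out YFP-positive arrays 3 and 4 left 12 genes higher and 6 lower, when 6.48% of all genes were called higher and 6.98% lower. These included 10 of the 11 genes that rose and all 5 that fell with all arrays; Maml3 was lost, and Hey1, Neurod6 and Ascl2 were added. Of the 5 genes that fell, Dlk1, Hand1 and Notch3 were each at their 2 lowest levels on arrays 1 and 2, while Jag1 and Id2 were not. Of the 11 that rose, Hey2, Mfng, Dner and Tcf12 were at their 2 highest levels there.

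**Figure D4:**
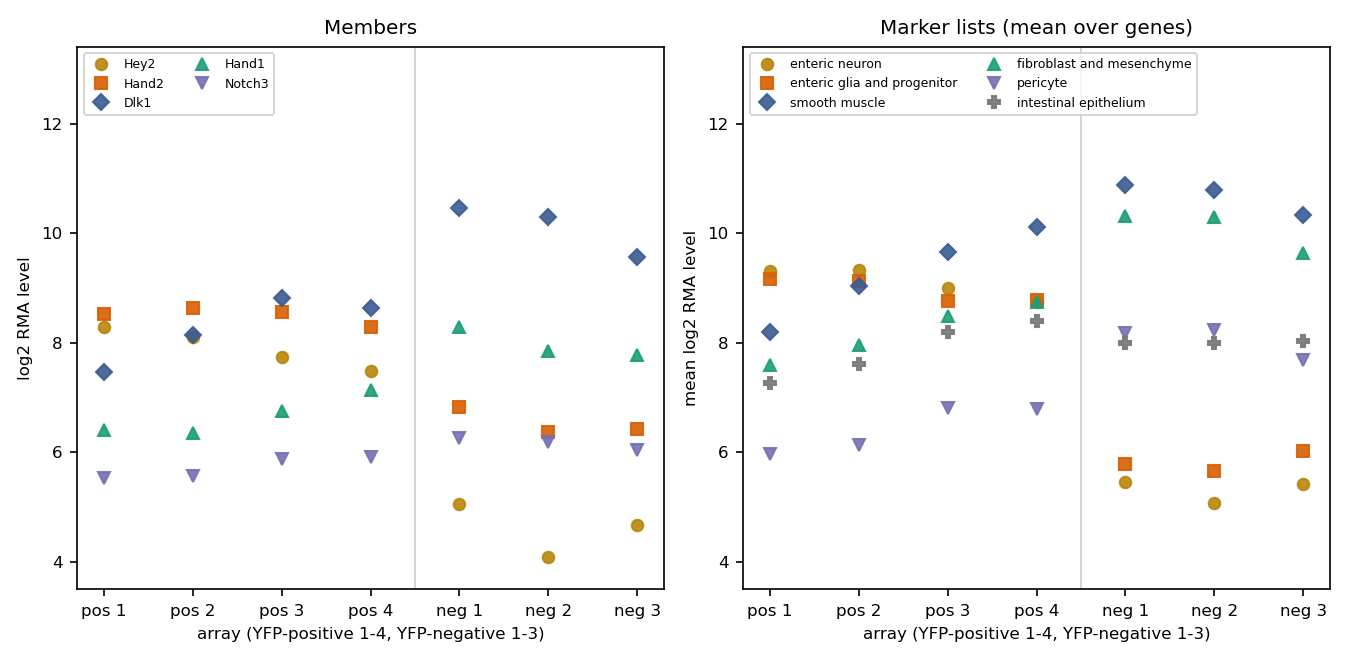
Log2 RMA level on each of the 7 arrays (horizontal axis; pos, YFP-positive; neg, YFP-negative) of Hey2, Hand2, Dlk1, Hand1 and Notch3 at the left and, at the right, the mean level of 6 lists of marker genes. Dlk1, Hand1 and Notch3 are higher on YFP-positive arrays 3 and 4 than on arrays 1 and 2, as are the smooth muscle, fibroblast and pericyte lists, whereas the neuron list is lower there (8.99 and 8.74 against 9.31 and 9.34).

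Other genes of the Notch pathway, outside the 49, moved in both directions. In this list of 47 measured genes 5 rose and 4 fell, shares near the 8.39% and 9.11% of all genes, and the median difference was 0.01. Fbxw7, which marks the cleaved receptor for destruction, rose by 1.91 ± 0.12 (adjusted p = 0.000111), from 7.05, 7.13 and 7.22 on the YFP-negative arrays to 9.05, 9.30, 8.79 and 9.02 on the YFP-positive arrays. Of the 12 measured co-repressor genes, which keep Notch targets off or act with Hes proteins, 3 rose and 0 fell: Tle1 by 0.98 ± 0.09 (adjusted p = 0.000405), Hdac2 by 0.74 ± 0.11 (adjusted p = 0.00480) and Tle4 by 0.58 ± 0.13 (adjusted p = 0.0240). Nrarp, a Notch target that feeds back on the pathway, rose by 0.46 ± 0.08 (adjusted p = 0.00920) and is named after its values were seen. Neurl3, a relative of the Neuralized ubiquitin ligases, fell by 2.12 ± 0.23 (adjusted p = 0.00103) and Dtx3l, of the Deltex family, by 1.09 ± 0.17 (adjusted p = 0.00443). Of the 9 measured genes for cleavage of the receptor, only Furin passed, and it fell by 0.70 ± 0.09 (adjusted p = 0.00226). Gxylt2, a glycosyltransferase of the receptor, fell by 0.55 ± 0.13 (adjusted p = 0.0239). Tle4 and Gxylt2 each lost their call when array 1 or 2 of either group was left out, or YFP-positive arrays 3 and 4 together. Tle4 also lost it without YFP-positive array 4, and Gxylt2 without YFP-positive array 3. In the fit with the replicate number as a block, Nrarp, Tle4 and Gxylt2 all lost their calls.

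Among 35 measured bHLH genes outside the 49, the median difference was -0.06; 1 gene rose and 7 fell, when 8.39% of all genes were called higher and 9.11% lower. Tcf21, a factor of visceral mesenchyme, fell by 2.68 ± 0.38 (adjusted p = 0.00315), from 10.81, 10.81 and 9.97 on the YFP-negative arrays to 6.96, 7.86, 8.13 and 8.44 on the YFP-positive arrays. Neurog3, which specifies enteroendocrine cells, fell by 1.28 ± 0.18 (adjusted p = 0.00349). Lyl1, of blood and endothelium, fell by 1.26 ± 0.10 (adjusted p = 0.000311), and Twist2, of mesenchyme, was 2.004-fold lower (adjusted p = 0.00380). The remaining 3, Bhlhe40, Msc and Twist1, are named after their values were seen. Bhlhe40 lost its call when YFP-positive array 2 or YFP-negative array 1 or 2 was left out, and Twist1 when YFP-negative array 2 was. All 6 mesenchyme and all 6 myeloid markers were also lower in YFP-positive cells. Of the 6 enteroendocrine markers only Gip passed as lower. The part of these cells in the results was not tested. The gene that rose was Olig3, by 0.63 ± 0.13 (adjusted p = 0.0154). Its mean level was in the third of all genes with the lowest levels. Leaving out either YFP-negative array 1 or both YFP-positive arrays 3 and 4 ended its call, which left 0 genes of this list higher.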

How the data were processed

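RNA of 7 sorted samples was measured on Affymetrix mouse arrays. The authors deposited 1 log2 level for each probe set and array. Per the submitters' processing notes these came from RMA in Affymetrix Expression Console, a method that removes background, equalises the distributions of arrays and combines the probes of a set. Not given in the sources used here were program versions and which arrays entered each run. Per the labels' protocols, cDNA was amplified from very little RNA, and this and quantile scaling can compress differences. Of 35556 probe sets, 21789 had 1 gene symbol, 1621 had several and 12146 had none in the platform annotation. The last 2 kinds were left out. Where a symbol had several probe sets (999 symbols), that of highest mean level stood for it. All columns were matched to samples by name. A few listed genes were not analysed here.

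The comparison used limma 3.58.1 (lmFit, eBayes) in R 4.3.3 with group as its only term, and p-values were adjusted over 19938 genes (Benjamini-Hochberg, threshold 0.05); the fit was tested on simulated data. Figures and motif searches used Python 3.11.15, pandas 2.3.3 and matplotlib 3.10.9. The members and lists were chosen with earlier results of these data known. Called members with a log2 fold change of at least 1 in size are given with every array's level. Other called members are given with fold change and SE. Members that did not pass are given by range and count, and by name where they are receptors, canonical ligands, Hes, Hey, Id, E protein or Hand genes. Of each other list, up to 4 called genes per direction are named; levels or genes shown beyond this rule were chosen after their values were seen. Tried as alternatives were the variance model, scaling, the low-value filter, probe set choice, array weights, a test against 1.5-fold, a replicate block and leaving out arrays. The fit without YFP-positive arrays 3 and 4, counted among them, was not planned and was added with the levels of these arrays known.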

Additional observations from a re-analysis of the deposited data

Results flagged for a closer look

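In 9 of the 49 genes, 1 of the 4 YFP-positive arrays stood apart from the other 3. The gap to its nearest neighbour took up more of the group's range than Dixon's 95% critical value for 4 samples allows. Chance gives this in about 1 in 20 groups when no values are tied. Array 2 was the array concerned in 6 of them. It was the highest for Numbl (gap ratio 0.9836), Neurod4 (0.8882), Id1 (1) and Tcf3 (1), and the lowest for Neurod2 (1) and Neurog2 (1). For Id1, Tcf3, Neurod2 and Neurog2 the other 3 arrays share 1 deposited value, which makes the ratio 1 whatever the gap, and the whole group range was 0.14, 0.20, 0.18 and 0.01 on the log2 scale. For Numbl, Neurod4 and Olig2, 2 of the other arrays share 1 value, so all 6 flags of array 2 involve tied values. Array 4 was the highest for Notch2 (0.9057), array 1 for Olig2 (0.8439) and array 3 for Heyl (0.9507). Of these genes only Heyl passed the threshold; its array 3, at 8.37 beside 8.05 to 8.07, lies on the side away from the YFP-negative arrays.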

How the results depend on the processing

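Of the 16 called genes, 5 (Hey2, Hand2, Mfng, Heyl and Tcf4) kept their call in all 17 alternatives, 12 in all but the test against a fold of 1.5, and 13 when each array was left out in turn; 0 changed sign. Of the 33 others, 11 changed sign and 7 passed in at least 1 alternative. The test against a fold of 1.5 (limma treat), a stricter question by construction, called 5 genes higher and 0 lower (8 and 4 at an unadjusted p under 0.05), 3 and 0 in the Notch pathway, 0 lower among the other bHLH and Id genes, and 469 higher and 558 lower over all genes. It left 2 higher and 1 lower in the other Notch list and 0 higher and 2 lower in the other bHLH list. Olig3, the 1 gene higher in that list, was also left out with the third of genes of lowest mean, which left 0. Over the fits without 1 array, the number lower was 3 to 6 among the 49 genes, 1 to 3 in the Notch pathway and 1166 to 1890 over all genes, and 0 to 1 was higher in the other bHLH list; the lowest count over all genes was without YFP-negative array 2. The number higher among the 49 was 10 to 12. The groups share replicate numbers, but the labels do not say whether these pair the samples. Deviations of same-numbered arrays correlated by 0.01, -0.09 and 0.04, and 0 YFP-negative arrays correlated best with their own number. With so few arrays, these values do not show a pairing and cannot exclude one. With the replicate number as a block, which leaves out YFP-positive array 4, 10 genes were higher and 3 lower (Notch pathway 7 and 1), and 1245 and 1264 over all genes. Notch1, Notch3 and Dlk1 lost their calls in that fit. The cause of these changes was not tested. With no detection calls, low levels limit what can be said of the 12 genes in the third of all genes with the lowest means, 8 of them proneural or neuronal.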

Other observations

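For 15 of the 49 genes, the deposited value was identical to 6 decimals on at least 3 of the 7 arrays, beside 6525 of all 19938 genes; 0 of these 15 and 4 of the 6525 were called. A further probe set of Rbpj, not used above because its mean is lower, was at 3.09, 3.09, 3.78 and 2.74 on the YFP-positive and at 3.09, 2.94 and 3.09 on the YFP-negative arrays, a difference of 0.14 ± 0.23, opposite in sign to the -0.27 of the probe set used. That of Maml2 differed by -0.04 ± 0.07, beside -0.16 for the probe set used.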
